A study of Mus musculus with 5 samples.

Results

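The proteasome subunit genes, their assembly factors and the closest ubiquitin genes were followed in natural killer (NK) cells of mouse spleen. The set was defined by gene symbol and holds 54 genes of the 56691 in the deposited count table. It comprised 7 alpha and 7 beta genes of the standard core, 3 immunoproteasome genes, 6 ATPases and 4 further genes of the base, 8 lid genes, 4 activators, 5 core and 3 base assembly factors, 3 ubiquitin supply and delivery genes, 2 deubiquitinases and 2 genes of transcriptional feedback. The cells carried a CRISPR knockout of Fli1, an ETS family transcription factor (Fli1 KO, 3 libraries), or the control labelled NTC (2 libraries). All 5 libraries are of total RNA captured with probes, and the labels give no strain, sex, age, guide, culture condition or time after editing. The series title places Fli1 in the control of protein homeostasis under nutrient stress, and the comparison of the 2 groups asks whether the RNAs of the degradation machinery differ with it.

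The proteasome is the barrel that degrades proteins tagged with ubiquitin. Alpha subunits form its outer rings and gate, beta subunits its inner rings, and 3 of the beta subunits (Psmb5, Psmb6 and Psmb7) carry the cutting sites. A cap, built from a base with ATPases and a lid, recognises, unfolds and feeds the substrate. In lymphocytes and under interferon gamma the inducible subunits Psmb8, Psmb9 and Psmb10 replace the standard cutting subunits in new particles, which changes the peptides made for MHC class I. When degradation falls short, the factor NRF1 (Nfe2l1), extracted from the endoplasmic reticulum by p97 (Vcp) and cleaved by the protease Ddi2, activates many subunit genes together.

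Totals ran from 4718390 to 5643791 counts per library, and a member had between 30 and 1272 counts in a library. All 54 members passed the filter on low counts and 52 lay over 3 times background, the count density on odour and pheromone receptor genes. Fli1 itself (GRCm38 chromosome 9, 32422204 to 32542861) stood at 390, 320 and 361 CPM (counts-per-million after TMM scaling) in Fli1 KO and at 322 and 279 CPM in NTC and did not pass the test (log2 fold change 0.25, edgeR adjusted p = 0.641), so a count over the gene does not check the labels. The 10 NK markers (such as Ncr1, Klrb1c and Eomes) were all over 3 times background. Of 8 T cell markers 1 was (Trac), of 6 B cell markers 1 (Ighm), and 0 of 6 macrophage, 5 neutrophil, 5 dendritic, 4 erythroid and 3 platelet markers were. The T cell markers summed to 50.8 to 60.1 CPM in Fli1 KO and to 55.1 and 50.6 CPM in NTC, the B cell markers to 79.1 to 94.7 and to 114 and 107 CPM, and the platelet markers to 15.9 to 21.9 and to 18.03 and 41.99 CPM. NTC 2 stood apart from the other libraries on the first principal component of tested genes averaging 5 CPM or more (46.4% of their variance). Fli1 KO 2 and NTC 1 lay between it and the other 2 Fli1 KO libraries.

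Per kb of exon, the members were high among coding genes but far from equal to each other, as the plot of levels by role shows. This scale compares genes only roughly, since exon length was taken over all transcripts of a gene and probes may capture genes unequally. Ubb, which encodes a chain of ubiquitin repeats (GRCm38 chromosome 11, 62551171 to 62553213), led with a level of 94.8 CPM per kb over the 5 libraries, above 98.8% of 19318 tested coding genes. The inducible cutting subunit Psmb8 (chromosome 17, 34197721 to 34201454) followed with 60.9 CPM per kb, then the interferon-induced activator subunit Psme1 with 53.2 and the ubiquitin-activating enzyme Uba1 with 43.2. The standard core ranged from 7.93 to 34.6 CPM per kb (median 21.4) and the cap from 7.22 to 31.0 (median 15.3). Assembly factors, which act on particles in construction and do not stay in them, were lower, from 2.701 to 12.1 (median 6.94). Psmg3 at 2.701 and Psmd9 at 3.60 CPM per kb were the 2 members under 3 times background. The deubiquitinases of the cap, Usp14 and Uchl5, stood at 5.90 and 6.62.

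**Figure D1:**
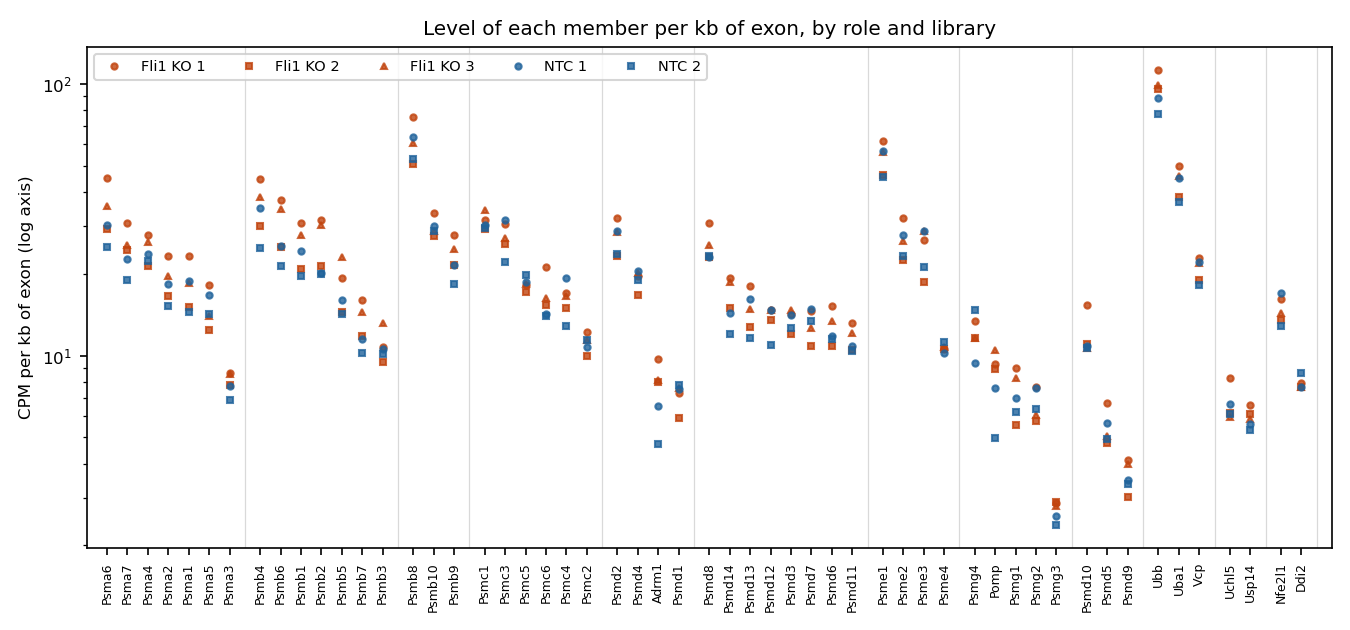
Level of each of the 54 members in CPM per kb of exon (log axis), 1 symbol per library, Fli1 KO in orange and NTC in blue, grouped by role in the order alpha core, beta core, immunoproteasome, base ATPase, other base, lid, activator, core assembly, base assembly, ubiquitin supply, deubiquitinase and feedback. Ubb, Psmb8 and Psme1 are highest and Psmg3 lowest at 2.701, and the range over genes is wider than that over the libraries of any 1 gene.

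The starts of these genes were read for 2 short elements because Fli1 belongs to the ETS family and Nfe2l1 is a member. RefSeq promoters on GRCm38.p6, from 250 bases before to 50 after the start, were found for 46 of the 54 members (not for Psmb1, Psmb2, Psmb7, Psmc3, Psmd3, Psmd7, Psmg2 and Usp14). Where a gene had several entries, such as Psma6, Ubb and Nfe2l1, only the first was searched. Both strands were searched for CCGGAAG, which reads CTTCCGG from the other strand and is an element of many ETS factors around their GGAA centre, and for TGACNNNGC (GCNNNGTCA), the element of NRF1 and NRF2, whose first letters also begin sites of AP-1 and CREB factors. The ETS element was present in 15 of the 46 promoters (32.6%), against 9.12% of 27025 promoters in all and 23.0% of the 5800 of tested genes over 3 times background. It was found in 0 of 14 promoters of core subunits (7 alpha, 4 beta, 3 immunoproteasome) and in 10 of 15 of the cap, and in 3 of 4 of the core assembly factors. The NRF element was present in 9 of the 46 (19.6%, against 12.5% of all promoters and 15.2% of those over 3 times background), among them 2 core subunits, Psmb5 and Psmb6, and 3 cap subunits. Shown are 100 bases before the RefSeq start, which in Psmb5, Psmd6 and Pomp lies downstream of the GENCODE start of the gene, on the gene's strand for 2 cutting subunits with the NRF element, and for 3 cap genes and the assembly factor Pomp with the ETS element, with the element in capitals.
Psmb5 (chr14:54617996-54618095, minus strand): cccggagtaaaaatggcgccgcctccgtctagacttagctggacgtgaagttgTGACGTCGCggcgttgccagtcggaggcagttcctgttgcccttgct
Psmb6 (chr11:70525257-70525356, plus strand): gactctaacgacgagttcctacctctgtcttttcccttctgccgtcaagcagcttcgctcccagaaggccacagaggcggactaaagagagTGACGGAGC
Psmd2 (chr16:20651552-20651651, plus strand): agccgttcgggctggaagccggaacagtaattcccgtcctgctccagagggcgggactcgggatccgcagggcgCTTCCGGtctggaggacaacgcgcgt
Psmd6 (chr14:14120946-14121045, minus strand): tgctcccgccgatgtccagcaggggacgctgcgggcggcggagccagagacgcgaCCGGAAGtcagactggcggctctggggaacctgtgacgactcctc
Psmd11 (chr11:80428515-80428614, plus strand): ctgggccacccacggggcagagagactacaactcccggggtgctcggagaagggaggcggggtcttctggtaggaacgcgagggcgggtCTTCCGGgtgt
Pomp (chr5:147860528-147860627, plus strand): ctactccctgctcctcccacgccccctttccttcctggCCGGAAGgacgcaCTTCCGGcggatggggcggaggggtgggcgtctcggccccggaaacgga

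The elements lay close to the start in these genes. The NRF element began 47 bases before the start in Psmb5 and 9 bases before it in Psmb6. Pomp held the ETS element in both orientations, beginning 62 and 49 bases before the start, and Psmd2, Psmd6 and Psmd11 held it 26, 45 and 11 bases before. A match describes letters and does not show binding. The 15 members with the ETS element had a median log2 fold change between Fli1 KO and NTC of 0.15 and the 31 without it one of 0.11.

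No member passed the test between Fli1 KO and NTC. By edgeR's quasi-likelihood test 0 of 54 members were called higher and 0 lower, against 0.458% and 0.0883% of the 30580 genes tested (0.546% in all; 140 higher and 27 lower, which became 92 and 71 when counts were scaled by library size only) and 1.71% and 0.289% of the 7605 over 3 times background. DESeq2 and limma-voom also called 0. At an unadjusted p under 0.05, 11 members lay higher in Fli1 KO and 0 lower. The higher share of 20.4% compares with 5.23% of all genes tested and with 15.4% of those over 3 times background, and the lower share of 0 with 3.71% and 2.87%. The median log2 fold change of the members was 0.12, close to the 0.11 of the genes over 3 times background, where all tested genes had −0.018. In the same way 44 of the 54 members (81.5%) were positive, against 47.6% of all tested genes and 70.5% of those over 3 times background. In bulk RNA, fewer cells of a type and less RNA per cell cannot be told apart.

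The precision limits what these values show. The 95% interval of the log2 fold change lay within 2-fold in either direction for all 54 members and within 1.5-fold for 38. Scaling moved the direction of the set. With library size alone, which shifted the median of all genes from −0.018 to −0.14, the members' median was −0.010 with 25 positive, and in a fit of genes over 3 times background it was 0.0027 with 27 of 52 positive.

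**Figure D2:**
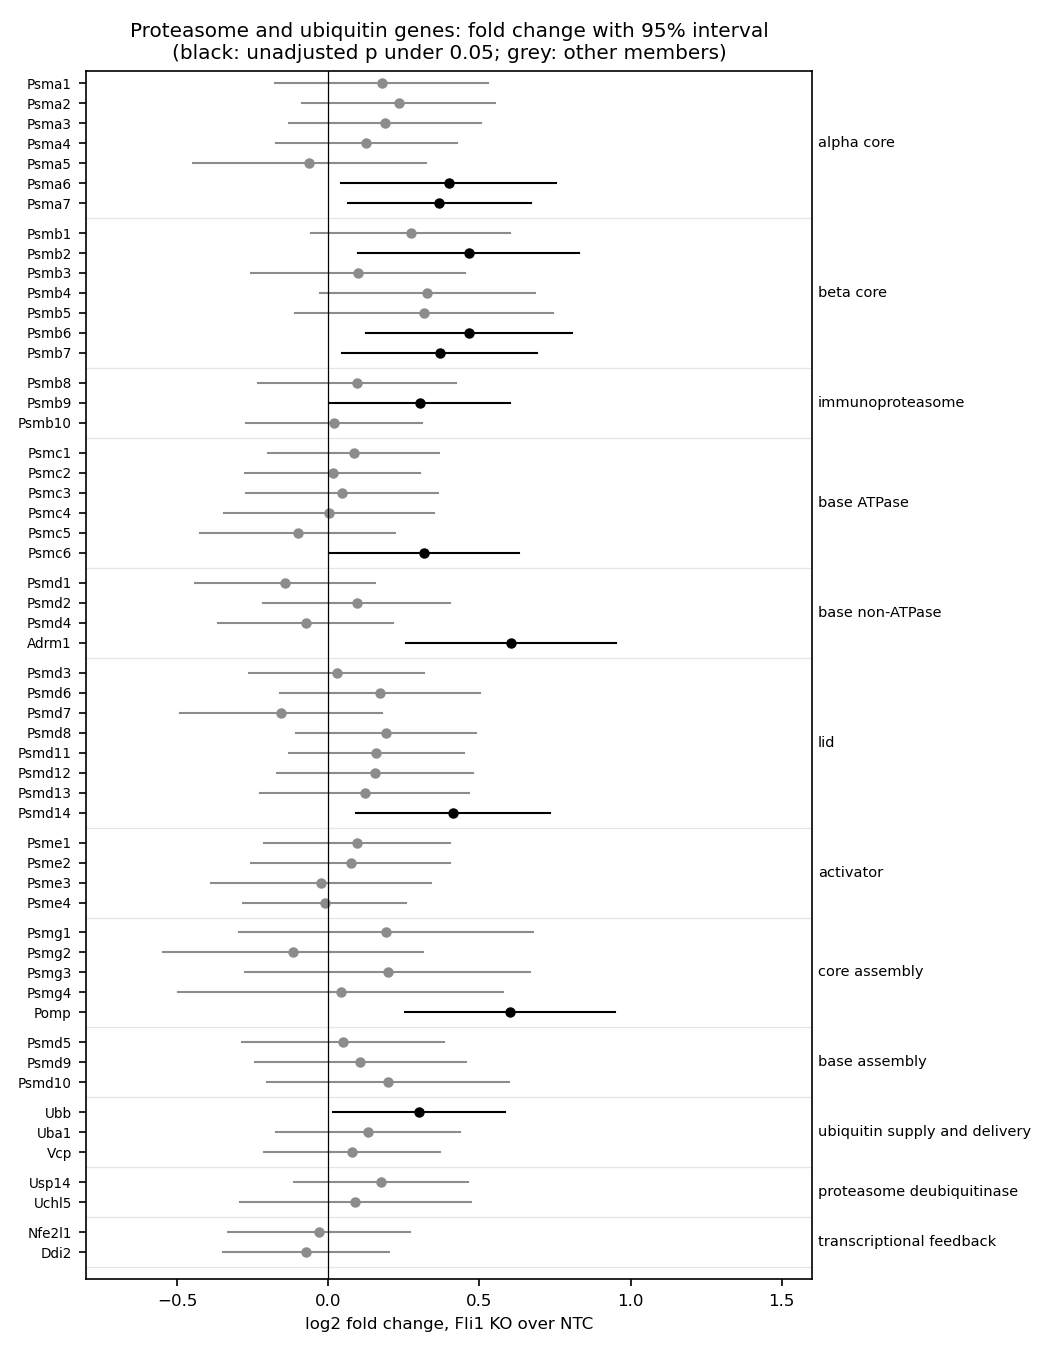
Log2 fold change (Fli1 KO over NTC) of each member with its 95% interval from the edgeR fit, by subgroup. The 11 members drawn in black had an unadjusted p under 0.05 and all lie above 0, led by Adrm1 and Pomp, and no member passed after adjustment.

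The order of the libraries was shared by many members. Fli1 KO 1 was the highest library for 37 of the 54 members and NTC 2 the lowest for 29, while Fli1 KO 2 was the lowest for 20. Among all tested genes over 3 times background, Fli1 KO 1 was highest for 46.3%, NTC 2 lowest for 48.6% and Fli1 KO 2 lowest for 21.4%. The shares of the members were 68.5%, 53.7% and 37.0%. The CPM of the members summed to 3711, 2879 and 3353 in Fli1 KO 1 to 3 and to 3202 and 2767 in NTC 1 and 2, so Fli1 KO 2 lay between the NTC libraries. The summed level of the 10 NK markers had the same order of libraries, at 13282.5, 8919.9 and 11496 CPM in Fli1 KO and 9526 and 6407 CPM in NTC. This sum is mostly Gzma, Gzmb, Il2rb and Prf1. The log2 fold changes of 4 of the 10 were negative, and 3 of these (Ncr1, Klrk1 and Tbx21, at −0.34, −0.27 and −0.48) had every Fli1 KO library below both NTC libraries, while none of the 10 passed the test. The background density was highest in the libraries with the smallest sums, at 1.78 CPM per kb in NTC 2 and 1.69 in Fli1 KO 2, against 1.38 to 1.52 in the other 3. The part of these library differences in the results below was not tested.

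**Figure D3:**
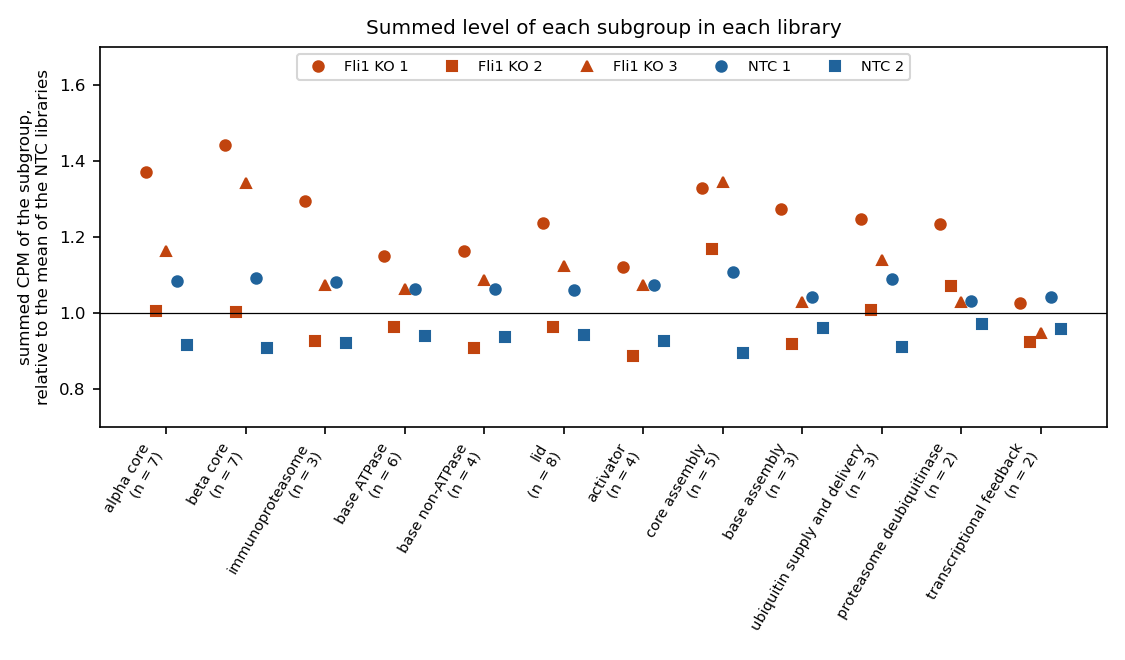
Summed CPM of each subgroup in each library, divided by the mean of the NTC libraries (line at 1). Fli1 KO 1 is highest in 10 of the 12 subgroups. In core assembly all 3 Fli1 KO libraries lie above NTC, at 78.8 to 90.9 CPM against 60.4 and 74.7. Pomp alone holds 46.6 to 54.8 CPM of this sum in Fli1 KO and 39.5 and 25.9 CPM in NTC. Of the 5 genes summed, 3 overlapped between groups.

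Differences were larger in the standard core, with a median log2 fold change of 0.295 over its 14 genes, than in the 18 cap genes with 0.089 (0.16 and −0.042 with library size alone), but the gap between the 2 was not tested. Of the 7 beta genes all had positive log2 fold changes, from 0.099 to 0.47 (median 0.33), or 6 with library size alone. Of the 7 alpha genes 6 did, from −0.063 to 0.40 (median 0.19), or 5 with library size alone. Psmb6, a cutting subunit with caspase-like activity (chromosome 11, 70525367 to 70527858), stood at 70.2, 46.9 and 64.7 CPM in Fli1 KO and at 47.5 and 39.9 CPM in NTC. Fli1 KO 2 lay between the NTC libraries, so the groups overlapped (60.6 ± 12.2 CPM, SD, n = 3, and 43.7 ± 5.38 CPM, n = 2). Its log2 fold change was 0.47 (SE 0.16, edgeR adjusted p = 0.330), and it ranged from 0.36 to 0.64 when any 1 library was left out. Psmb2, a structural ring subunit, stood at 38.1, 25.7 and 36.5 CPM against 24.3 and 24.0 CPM, with all Fli1 KO libraries above NTC but Fli1 KO 2 close to it (0.46, adjusted p = 0.387).

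In the standard core 5 of 14 genes had an unadjusted p under 0.05, all higher in Fli1 KO, against 15.4% of tested genes over 3 times background. Over all 54 members the 11 such genes became 3 with library size alone. Besides Psmb6 and Psmb2, those of the core were 2 alpha subunits and 1 beta subunit. Psma6 had 55.5, 36.2 and 43.7 CPM in Fli1 KO against 37.3 and 30.9 CPM in NTC, which overlap. Psma7 had 94.8, 75.1 and 78.2 CPM against 69.9 and 58.1 CPM, and the groups did not overlap. Psmb7, the trypsin-like cutting subunit, had 54.7, 40.3 and 49.6 CPM against 39.5 and 34.9 CPM, again without overlap. Their log2 fold changes were 0.40, 0.37 and 0.37 (edgeR adjusted p = 0.481, 0.422 and 0.465). Psmb4, the core subunit with the highest level per kb, overlapped between groups (0.33, edgeR adjusted p = 0.597). Its log2 fold change ranged from 0.12 to 0.61 when any 1 library was left out. The groups also overlapped in Psmb5, the chymotrypsin-like cutting subunit (17.4, 13.02 and 20.8 CPM against 14.4 and 12.7 CPM, log2 fold change 0.32, adjusted p = 0.701).

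The inducible cutting subunits differed in level, at 60.9 CPM per kb for Psmb8, 29.7 for Psmb10 and 22.8 for Psmb9, and none passed the test between groups. Psmb8 stood at 257, 171 and 206 CPM in Fli1 KO and at 216 and 179 CPM in NTC. The lowest and the highest library were both Fli1 KO, and its log2 fold change of 0.094 had a 95% interval from −0.23 to 0.42. Psmb10 stood at 56.9, 46.9 and 48.97 CPM against 51.3 and 49.1 CPM (0.019, interval −0.27 to 0.31). Psmb9, with 102, 79.0 and 90.3 CPM against 79.2 and 67.1 CPM, had a log2 fold change of 0.30 (edgeR unadjusted p = 0.0477, adjusted p = 0.5497), with Fli1 KO 2 just under NTC 1. Psmb9 overlaps the peptide transporter gene Tap1 on the opposite strand by 212 bases, and without a stated strand setting their reads cannot be told apart there. Tap1 itself stood at 225, 179 and 209 CPM against 179 and 145 CPM.

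Set against the standard subunits they replace, the inducible subunits had ratios on both sides of 1. Per kb of exon Psmb8 was 3.93, 3.50 and 2.63 times Psmb5 in Fli1 KO and 3.998 and 3.74 times in NTC. Psmb9 was below Psmb6 in every library, at ratios of 0.742, 0.862 and 0.714 against 0.853 and 0.860. Psmb10 was 2.09, 2.33 and 1.98 times Psmb7 in Fli1 KO and 2.60 and 2.82 times in NTC. Over the 3 inducible and the 3 standard subunits the ratio of mean levels was 1.88, 1.94 and 1.58 in Fli1 KO against 2.19 and 2.19 in NTC. This ratio and that of Psmb10 to Psmb7, which share genes, did not overlap between groups. The other 4 of the 6 ratios computed did, among them that of the activators Psme1 and Psme2 to the ATPases (2.15, 1.83 and 1.998 against 2.03 and 1.88). Among single genes, the groups did not overlap in 25.6% of all tested and 34.1% of those over 3 times background. Psmb7 overlaps Nek6 on the opposite strand by 255 bases, where their reads cannot be told apart. As ratios within a library, these 6 do not depend on the scaling, and they do not show which of the genes differed. Their size also rests on exon length and probe capture, so a ratio over or under 1 is approximate.

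**Figure D4:**
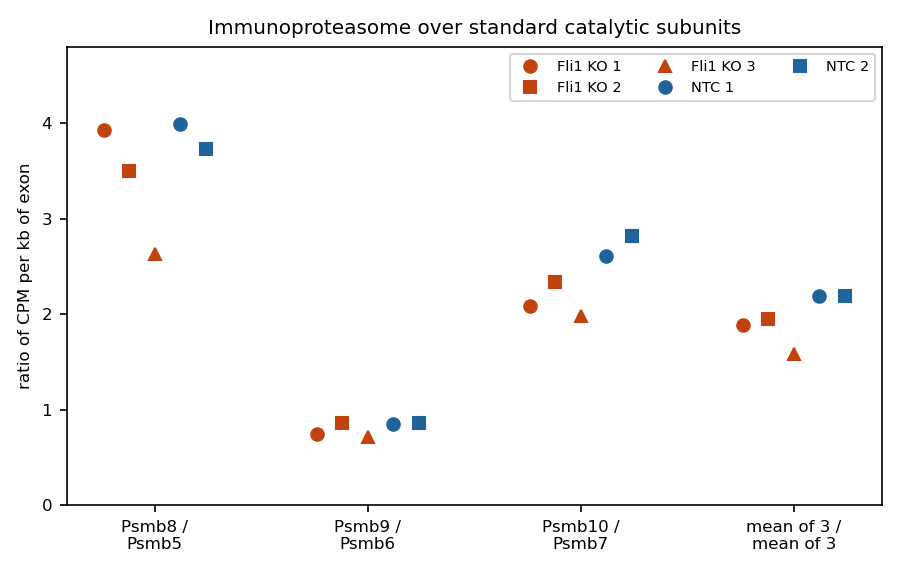
Ratio of the level per kb of exon of each inducible cutting subunit to its standard counterpart, and of the means of the 3, in each library (Fli1 KO orange, NTC blue). The ratio of means lies at 1.58 to 1.94 in Fli1 KO and at 2.19 in both NTC libraries.

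In the cap no gene passed the test, and 3 of 18 had an unadjusted p under 0.05, all higher in Fli1 KO, a share near the 15.4% of tested genes over 3 times background. The 6 ATPases, the motor of the base, had a median log2 fold change of 0.030, the other 4 base genes 0.0097 and the 8 lid genes 0.16 (−0.10, −0.12 and 0.026 with library size alone). Adrm1, the ubiquitin receptor of the base that binds Uchl5 (chromosome 2, 180171485 to 180176286), had the smallest p of all members. It stood at 43.2, 35.5 and 36.3 CPM in Fli1 KO and at 29.0 and 21.1 CPM in NTC. All 3 Fli1 KO libraries lay above both NTC libraries, with means of 38.3 ± 4.23 CPM (SD, n = 3) and 25.03 ± 5.55 CPM (n = 2), a fitted fold of 1.52 (log2 fold change 0.60, SE 0.17, interval 0.26 to 0.95). This did not pass after adjustment (edgeR adjusted p = 0.150). When any 1 library was left out, the log2 fold change ranged from 0.41 to 0.88.

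Psmd14, the lid protease that cuts ubiquitin chains off the substrate, stood at 54.3, 42.1 and 52.8 CPM against 40.6 and 33.8 CPM (log2 fold change 0.41, edgeR adjusted p = 0.376), without overlap. The ATPase gene Psmc6 had 73.8, 53.5 and 57.2 CPM against 49.8 and 48.9 CPM (0.32, adjusted p = 0.552), also without overlap. Other cap genes lay nearer to 0, a difference that was not tested. Psmc1, the highest ATPase per kb, had 61.1, 56.4 and 66.5 CPM against 58.6 and 57.0 CPM (0.084, interval −0.20 to 0.37). Psmd2, the large scaffold of the base, had 130, 94.0 and 115 CPM against 116 and 95.7 CPM (0.094), and Psmd8, the highest lid gene per kb, 94.4, 70.8 and 77.8 CPM against 70.6 and 71.2 CPM (0.19). In both the groups overlapped. Over all 54 members 11 had Fli1 KO above NTC without overlap and 1 had it below (22.2% in all), against 11.9% and 13.7% of all tested genes (25.6% in all) and 26.3% and 7.80% of those over 3 times background (34.1% in all).

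No activator or feedback gene passed the test, and their log2 fold changes were small. The 4 activators, which open the gate of the core without the ATPase cap, ranged from −0.024 to 0.094 in log2 fold change (−0.16 to −0.041 with library size alone). Psme1 stood at 136, 102 and 124 CPM in Fli1 KO and at 125 and 100.3 CPM in NTC. Psme2, its partner in the ring, has a near-identical copy, Psme2b (99.4% over 794 bases), and how shared reads were counted is not given, so both values are uncertain. Nfe2l1 stood at 88.0, 73.5 and 77.8 CPM against 92.4 and 70.2 CPM (−0.031, interval −0.33 to 0.27), with Fli1 KO within the range of NTC. Ddi2, its activating protease, stood at 75.5, 73.5 and 72.9 CPM against 73.5 and 82.3 CPM (−0.074, interval −0.35 to 0.20).

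Among the 8 assembly factors Pomp had the largest log2 fold change. Pomp, the maturation protein on which the beta rings are built (chromosome 5, 147860461 to 147876456), had 48.6, 46.6 and 54.8 CPM in Fli1 KO and 39.5 and 25.9 CPM in NTC. The groups did not overlap, but the NTC libraries lay far apart (49.995 ± 4.30 CPM, SD, n = 3, and 32.7 ± 9.63 CPM, n = 2). The difference was 1.52-fold (log2 fold change 0.60, SE 0.17, edgeR adjusted p = 0.150). Leaving out NTC 1 gave 0.97 and leaving out NTC 2 gave 0.34. The gene passed with no filter on low counts (0.62, adjusted p = 0.0471). The chaperones Psmg1 to Psmg4 and the base chaperones Psmd5, Psmd9 and Psmd10 ranged from −0.12 to 0.20. Psmg4, the core chaperone gene with the highest level per kb, stood at only 7.46, 6.42 and 6.45 CPM against 5.20 and 8.15 CPM, and Psmd10 at 22.6, 16.2 and 15.7 CPM against 16.0 and 15.7 CPM (0.20).

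Of the genes that supply and deliver ubiquitin, Ubb stood at 189, 160 and 166 CPM in Fli1 KO and at 149 and 130 CPM in NTC. The Fli1 KO libraries all lay higher (172 ± 15.2 CPM, SD, n = 3, and 140 ± 13.8 CPM, n = 2), with a log2 fold change of 0.30 (edgeR unadjusted p = 0.0404, adjusted p = 0.524). Uba1, which charges ubiquitin at the head of the cascade, had 241, 185 and 221 CPM against 217 and 177 CPM (0.13), and Vcp, which pulls tagged proteins out of complexes, 111, 92.0 and 107 CPM against 107 and 87.9 CPM (0.078). Both overlapped between groups. Usp14, which trims chains on the cap, stood at 55.1, 50.8 and 48.8 CPM against 46.8 and 44.5 CPM, a small difference without overlap (0.17, interval −0.11 to 0.46). It overlaps Thoc1 on the opposite strand by 2169 bases, so reads of the 2 genes cannot be told apart there, and Thoc1 stood at 50.6, 52.1 and 48.2 CPM against 33.8 and 39.9 CPM. Uchl5 had a log2 fold change of 0.090, with overlap.

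Pseudogene copies of the members held few counts, but how reads shared with a copy were counted is not given. At 95% identity over 200 bases or more, 10 members had a pseudogene copy in GENCODE, 16 copies in all, and none averaged over 4.04 CPM (Gm5422, a copy of Psmd2). Copies of other types reached higher averages. A730017L22Rik, which matches Psmd11 in antisense (97.9% over 1501 bases), averaged 13.3 CPM. Gm609, an antisense match of Psma3, averaged 7.72 CPM and Psme2b 7.14 CPM. Adrm1 has a near-identical gene, Gm9774 (99.8% over 1358 bases), which averaged 0.493 CPM, so the level of Adrm1 is uncertain in the same way as that of Psme2. In 7 members a transcript overlapped a gene on the opposite strand or an antisense copy, among them Psmb7 with Nek6 (255 bases), Psmd13 with Sirt3 (329 bases) and Vcp.

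Genes beside the members in the same pathway were read from the same fit. Of 84 listed, 83 were in the table and tested, and 3 were called higher (1 with library size alone) and 1 lower, against the 0.458% and 0.0883% of all tested genes and the 1.71% and 0.289% of those over 3 times background. The median log2 fold change was 0.17 (0.038 with library size alone), with 69 positive (83.1%, against 47.6% and 70.5%).

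Zfand2a, a stress-induced zinc-finger protein that binds the proteasome cap, rose from 14.2 and 11.5 CPM to 29.5, 19.4 and 23.2 CPM (log2 fold change 0.89, edgeR adjusted p = 0.0417). It was not called by DESeq2 (0.91, adjusted p = 0.0544) or limma-voom (0.87, 0.0560), with library size alone (0.76, 0.0828), among genes over 3 times background (0.77, 0.0505), or without Fli1 KO 1 (0.73, 0.404), Fli1 KO 3 (0.93, 0.206) or NTC 2 (0.76, 0.195). Ufd1, the p97 cofactor with the smallest p, stood at 45.4, 35.5 and 37.9 CPM against 30.2 and 28.6 CPM (0.43, adjusted p = 0.357). Sem1, a small lid subunit outside the 54 and named here after its values were seen, stood at 113, 76.3 and 86.6 CPM against 74.2 and 62.0 CPM (0.43, edgeR adjusted p = 0.369). Its log2 fold change ranged from 0.27 to 0.59 when any 1 library was left out.

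Of the 9 listed regulators of NRF1 and NRF2, 1 was called higher and 1 lower. Among tested genes over 3 times background the shares were 1.71% and 0.289%. Log2 fold changes were positive in 7 of the 9, and the groups overlapped in 5. Maff, a small MAF protein that pairs with NRF1 and NRF2 on their element, rose 3.35-fold, from 24.8 and 17.97 CPM in NTC to 95.4, 49.9 and 71.3 CPM in the knockout libraries. The log2 fold change was 1.74 (SE 0.27, edgeR adjusted p = 0.0261). It was called when any 1 library was left out (1.502 to 2.02) but not by limma-voom (1.705, adjusted p = 0.0522). Nfe2l2, which encodes NRF2, the oxidative stress relative of NRF1, was 1.66-fold lower, at 22.4, 22.3 and 25.6 CPM against 35.7 and 42.2 CPM (−0.73, SE 0.15, adjusted p = 0.0261). It was not called by DESeq2 (−0.71, adjusted p = 0.0716) or without Fli1 KO 1, 2 or 3 or NTC 2 (−0.78 to −0.60, adjusted p from 0.0826 to 0.260). In Maff and Nfe2l2 the groups did not overlap. The small MAF genes Mafg and Mafk overlapped between groups (log2 fold changes 0.16 and 0.091, edgeR adjusted p = 0.832 and 0.916).

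**Figure D5:**
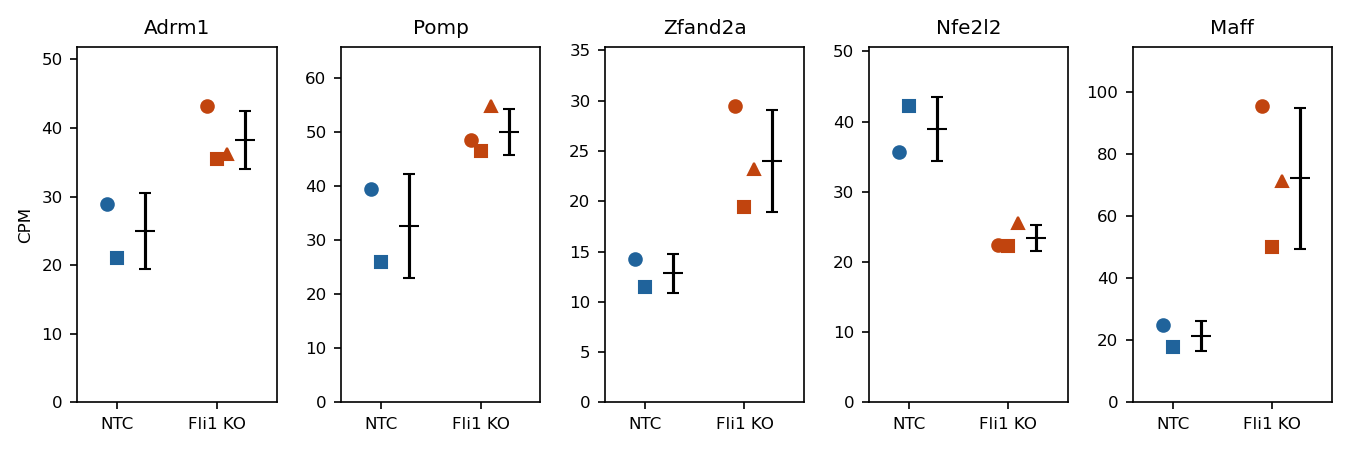
CPM in each library of the 2 members with the smallest p (Adrm1 and Pomp) and of 3 other pathway genes called by edgeR (Zfand2a, Maff and Nfe2l2), with the mean and SD of each group in black and replicates 1, 2 and 3 as circles, squares and triangles. The groups do not overlap in any of the 5, which were picked by their p in these same data, and only Nfe2l2 is lower in Fli1 KO.

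The quality control ligases had a median log2 fold change of 0.11, and Ubr4, which tags proteins by their first residue, had the smallest p among the 11 (254, 250.2 and 252 CPM against 216 and 227 CPM, 0.19, edgeR adjusted p = 0.731). Of the 3 tissue-restricted subunits, Psma8 and Psmb11, of testis and thymus, were under 3 times background. The third, Psme2b, stood at 6.25, 6.06 and 5.04 CPM against 6.41 and 11.9 CPM (−0.63, edgeR adjusted p = 0.471). Its log2 fold change ranged from −1.02 to −0.14 when any 1 library was left out.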

How the data were processed

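The data are RNA-seq of splenic NK cells, with 3 Fli1 KO and 2 NTC libraries grouped by their titles. Per the labels' protocols, libraries were made from 10 ng of RNA with an enrichment kit. Per the submitters' processing notes, reads went through FastQC 0.12.0, Trimmomatic 0.39 and STAR 2.7.11 on mm10. How reads were counted (tool, strand setting, annotation release, multiple positions) was not given in the sources used here. Values deposited by the authors are whole-number counts per Ensembl gene ID, with 0 further columns.

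The 54 member symbols each matched 1 ID through the supplied gene name table. Coordinates and exon lengths are from GENCODE release M21 (GRCm38, the same assembly as mm10), promoters from RefSeq on GRCm38.p6. Genes were kept with edgeR's filterByExpr (minimum count 10), scaled with TMM factors and tested over all 30580 kept genes by the robust quasi-likelihood test of edgeR (4.0.16, in R 4.3.3) with Benjamini-Hochberg adjustment. The calling threshold was an adjusted p of 0.05. The 95% intervals of log2 fold changes use the same fit, from which the SE was also derived. Each group mean and SD refers to CPM. Background was the count density on 1455 autosomal protein-coding receptor genes of smell (Olfr and Vmn), per kb of exon. Copies of members were sought with BLAST 2.17.0 in the GENCODE transcripts. The fit was tested on simulated data.

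Members named are those with an unadjusted p under 0.05, the smallest p and the highest level per kb in each subgroup, the catalytic subunits, Nfe2l1, Ubb and Vcp. Of other pathway genes, the called ones and the smallest p per group are named. Of these, 1 is counted in the totals but not reported here. Other names were added after their values were seen. Members, lists, tests and alternatives were chosen with earlier results of these data known. The alternatives were DESeq2 size factors, library size alone, no filter, 5 CPM in 2 libraries, genes over 3 times background, each library left out, a replicate block, DESeq2 1.42.0 and limma-voom (limma 3.58.1). Titles number the libraries as replicates without naming separate animals, so p-values reflect no more than the spread among these samples, which may be technical.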

Additional observations from a re-analysis of the deposited data

How the results depend on the processing

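The count of members called higher was 0 and became 1 with no filter (Pomp), 4 with the replicate block and 0 to 4 when each library was left out, the 4 being Adrm1, Pomp, Psmb4 and Psmb6 without NTC 1. No setting called a member lower. Other pathway genes called higher went from 3 to 1 with library size alone, 1 with limma-voom, 10 with the replicate block and 1 to 5 over the left-out libraries, and those called lower from 1 to 0 with DESeq2 and 0 to 2 over the left-out libraries. Over all genes, 140 higher and 27 lower calls became 92 and 71 with library size alone, 239 and 56 with no filter, 137 and 59 among genes over 3 times background, 728 and 193 with the replicate block, and 46 to 703 and 3 to 174 over the left-out libraries. Over the left-out libraries the most calls came without NTC 1, where NTC 2 was the only control. Where a single NTC library remained, it was taken to vary as the knockout libraries do, so calls from those fits add little. The cause of these changes was not tested.

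The members' median of 0.12 ranged from 0.045 (without Fli1 KO 1) to 0.25 (without NTC 1), and was −0.010 with library size alone. Members near 0 changed sign. With library size alone the log2 fold changes were −0.044 for Psmb8, −0.11 for Psmb10, −0.043 for Psmc1, −0.041 for Psmd2, −0.041 for Psme1, −0.086 for Psmg4, −0.054 for Vcp and −0.042 for Uchl5. Among genes over 3 times background they were −0.031, −0.10, −0.036, −0.028, −0.027, −0.080, −0.040 and −0.028 in the same order, and Psmb10 was at −0.0061 with the stricter filter. Over the left-out libraries Psmb8 ranged from −0.060 to 0.26, Psmb10 from −0.058 to 0.096, Psmd2 from −0.029 to 0.26, Psme1 from −0.050 to 0.28, Psmg4 from −0.25 to 0.385, Vcp from −0.048 to 0.25, Uchl5 from −0.066 to 0.19, Nfe2l1 from −0.21 to 0.20 and Ddi2 from −0.135 to 0.016.

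The libraries share replicate numbers 1 and 2 across the groups, and the labels do not say that these mark a shared animal or batch. Deviations from the group means correlated at 0.069 for number 1 and 0.14 for number 2. Fli1 KO 3, whose number has no NTC partner, correlated at 0.077 with NTC 1. With only 2 NTC libraries, each value with NTC 2 is the negative of that with NTC 1. These correlations therefore cannot show whether the numbers mark pairs. With the replicate block, in which Fli1 KO 3 has no partner and drops out of the comparison, Adrm1, Pomp, Psma7 and Psmb6 were called higher (log2 fold changes 0.66, 0.55, 0.41 and 0.41). Outside the 54, the block also called Sem1, Ufd1 (0.46) and 5 ubiquitin-conjugating enzymes. Depth limits the rarest members most: with 30 to 39 counts a library, Psmg4 had the widest interval (−0.50 to 0.58).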

Other observations

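The listed enzymes that activate ubiquitin (E1) or pass it on to the ligases (E2) had mostly positive differences between Fli1 KO and NTC. Of 29 tested, 16 had all Fli1 KO libraries above both NTC libraries and 0 below, 9 had an unadjusted p under 0.05 and a positive log2 fold change and 1 a negative one, and edgeR called 0 (DESeq2 0, limma-voom 0). With the replicate block 5 were called higher (Ube2d2a, Ube2d3, Ube2j2, Ube2q1 and Ube2w). The log2 fold change of Ube2c ranged from −0.30 to 0.65 when any 1 library was left out. The median of the 29 was 0.25, against 0.11 for all tested genes over 3 times background, of which 26.3% had Fli1 KO above NTC without overlap and 7.80% below. At an unadjusted p under 0.05, 15.4% of those genes lay higher and 2.87% lower. Of the 29, 82.8% were positive, against 70.5% of those genes. With library size alone the median of all other pathway genes was 0.038, and that of the 29 was not computed. Ube2d3, a broadly used conjugating enzyme and the most abundant of the group in CPM, stood at 439, 382 and 384 CPM in Fli1 KO and at 297 and 276 CPM in NTC (log2 fold change 0.49, SE 0.14, edgeR adjusted p = 0.162). It was not called when any 1 library was left out (0.43 to 0.56, smallest adjusted p = 0.0503), and was with the replicate block (0.52, adjusted p = 1.5e-04).

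The relatives Ube2d1 and Ube2d2a, named after their values were seen, had log2 fold changes of 0.51 and 0.38 (edgeR adjusted p = 0.391 and 0.360). Ube2w, which tags the first residue of proteins, stood at 29.5, 26.6 and 24.2 CPM against 17.7 and 19.8 CPM (0.51, adjusted p = 0.271). The 1 member of the group with an unadjusted p under 0.05 and a lower value was Ube2t, an enzyme of DNA crosslink repair near background (11.1, 12.8 and 8.66 CPM against 17.5 and 12.3 CPM, −0.46, adjusted p = 0.534), and its groups overlapped.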
